A study of Rattus norvegicus with 54 samples.

Results

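The insulin-like growth factor (IGF) system of the rat left ventricle was described here by 10 genes out of the 40319 listed in the count tables. The members are the ligands Igf1 and Igf2, the receptors Igf1r and Igf2r, and the binding proteins Igfbp2, Igfbp3, Igfbp4, Igfbp5, Igfbp6 and Igfbp7, each found by its symbol in all 54 libraries. All animals were female F344/NJcl-rnu/rnu rats, an athymic strain that lacks a thymus and so most T cells, 8 weeks old. Sham hearts had sham surgery and no treatment. Hearts with myocardial infarction (MI) had a permanent ligation of the left anterior descending coronary artery, and the cell sheet group had the same ligation followed by a bi-level sheet of human smooth muscle cells (SMC) and endothelial progenitor cells (EPC). Tissue was taken 1 week after surgery from each heart in 3 zones (infarct, border and remote), with 6 animals per treatment and 18 animals in all. Within a group the labels number technical replicates, whereas the study's methods describe separate animals, so p-values measure only the spread between these libraries.

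IGF1 and IGF2 are secreted peptides that signal for growth and survival through IGF1R, a receptor tyrosine kinase related to the insulin receptor. IGF2R, which is also the cation-independent mannose-6-phosphate receptor, carries IGF2 to lysosomes for degradation. The binding proteins hold the ligands outside the cell and can limit or prolong their action, and proteases such as PAPP-A free the ligand again. In the infarcted heart IGF1 has been studied as a factor for myocyte survival and repair, and macrophages and fibroblasts are known local sources of it.

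The genes of a library summed to between 12699204 and 23397754 counts. At this depth every member except Igfbp2 had at least 180 counts in every library, and Igfbp2 had as few as 0. Levels are CPM, the counts of a gene scaled to a common library size by TMM factors, a scaling that assumes most genes are unchanged, and they are compared within a gene only, since transcript length was not used. The test is edgeR's quasi-likelihood F test within each zone, with Benjamini-Hochberg adjustment over all genes tested and a threshold of 0.05 on the adjusted p. The cardiomyocyte marker list (7 genes, such as Myh6 and Tnnt2) had a median of its mean log2 CPM of 11.8 in sham infarct zones, 9.91 in MI infarct zones and 7.95 in cell sheet infarct zones, and none of its genes was at 0 in any library. One library of the cell sheet border zone, replicate 1, had a cardiomyocyte level of only 3.65. Sham replicate 5 stood apart from the other sham hearts in all 3 zones. Cell sheet replicate 1 had the highest Igf1, Igfbp4, Igfbp6 and Igfbp7 of its group in the remote zone. None of its remote member values met the outlier criterion used at the end. Results that rest on these animals are given with and without them. In bulk tissue, fewer cells of a type and less RNA per cell cannot be told apart. Reads of the transplanted human cells were not separated from rat reads here, and their part in any value was not tested.

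Promoters are shown for the ligand and the 3 binding proteins that rose in all zones of the infarcted heart (Igf1, Igfbp4, Igfbp6 and Igfbp7) and for Igf1r, the single member called between cell sheet and MI with all animals. Each line gives the 250 bases upstream of the start of transcription from RefSeq on GRCr8, written 5′ to 3′ on the strand of the gene, with capitals marking the GC box GGGCGG and the TATA box TATAAA on either strand.
Igf1 (chr7:24172282-24172531, plus strand): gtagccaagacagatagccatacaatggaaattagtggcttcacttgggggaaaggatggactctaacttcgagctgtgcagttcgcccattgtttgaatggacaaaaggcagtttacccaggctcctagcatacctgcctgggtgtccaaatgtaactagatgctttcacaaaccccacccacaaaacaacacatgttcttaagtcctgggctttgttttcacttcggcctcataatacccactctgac
Igfbp4 (chr10:84491221-84491470, plus strand): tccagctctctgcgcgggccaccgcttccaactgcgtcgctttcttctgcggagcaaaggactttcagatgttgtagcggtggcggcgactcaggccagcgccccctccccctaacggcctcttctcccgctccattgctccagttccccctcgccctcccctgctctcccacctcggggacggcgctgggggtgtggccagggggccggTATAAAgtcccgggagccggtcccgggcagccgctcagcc
Igfbp6 (chr7:135154669-135154918, plus strand): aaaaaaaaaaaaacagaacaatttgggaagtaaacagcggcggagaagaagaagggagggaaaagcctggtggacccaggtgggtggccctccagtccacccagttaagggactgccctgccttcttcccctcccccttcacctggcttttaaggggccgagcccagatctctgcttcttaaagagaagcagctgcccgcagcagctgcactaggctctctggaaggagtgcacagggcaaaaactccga
Igfbp7 (chr14:31091486-31091735, plus strand): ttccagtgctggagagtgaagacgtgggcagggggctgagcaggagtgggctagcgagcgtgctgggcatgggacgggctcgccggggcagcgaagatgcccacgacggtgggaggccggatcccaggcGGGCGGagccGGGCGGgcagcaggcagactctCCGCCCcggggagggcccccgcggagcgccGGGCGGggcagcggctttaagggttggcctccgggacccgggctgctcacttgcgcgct
Igf1r (chr1:130959747-130959996, plus strand): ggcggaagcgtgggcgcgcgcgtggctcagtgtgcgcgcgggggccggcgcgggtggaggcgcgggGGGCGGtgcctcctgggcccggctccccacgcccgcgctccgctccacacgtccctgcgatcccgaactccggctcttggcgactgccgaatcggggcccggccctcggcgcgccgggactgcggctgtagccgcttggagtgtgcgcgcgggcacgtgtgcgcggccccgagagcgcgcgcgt
All 10 members had a promoter in the RefSeq table, Igf2 with separate windows for 2 start sites. Igfbp4 was the member with a TATAAA match, a motif that 12.9% of 33469 promoters of this length held. The GC box, held by 30.5% of promoters, occurred 4 times in the Igfbp7 window, 2 times in that of Igf2r and 1 time in those of Igf1r, Igfbp2 and the second Igf2 start. The AP-1 motif TGANTCA, held by 6.34% of promoters, was not found in any member's window, nor was any of the 3 motifs in those of Igf1 and Igfbp6. None of the 3 motifs stood in the windows of all 4 genes that rose together. Their GC content ran from 46.8% in Igf1 and 54.8% in Igfbp6 to 68.8% in Igfbp4 and 74.4% in Igfbp7, against a median of 51.2% over all promoters. Along the genome Igfbp2 and Igfbp5 are direct neighbours on chromosome 9, and in the infarct zone of MI hearts the first rose and the second fell.

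The comparison of MI with sham asks how infarction alone altered the IGF system. In the infarct zone 8 of 10 members changed: Igf1, Igf2r, Igfbp2, Igfbp4, Igfbp6 and Igfbp7 rose, and Igf1r and Igfbp5 fell. Across the whole transcriptome 49.9% of genes tested passed there, 22.7% higher and 27.2% lower. In border tissue 7 of 10 members changed (5 rose, 2 fell), against 41.7% of all genes (18.4% higher and 23.2% lower). Remote tissue, taken from the septum, had 4 of 10 members higher (Igf1, Igfbp4, Igfbp6 and Igfbp7), against 25.8% of all genes and 11.7% in that direction. The median log2 fold change of the members was 0.98 in infarct, 0.83 in border and 0.57 in remote tissue, beside -0.02, -0.02 and -0.04 over all genes tested. Without sham replicate 5 the counts of members were 8, 8 and 5. The shares of all genes called without that animal are not given here, so these counts are not set against a background.

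**Figure D1:**
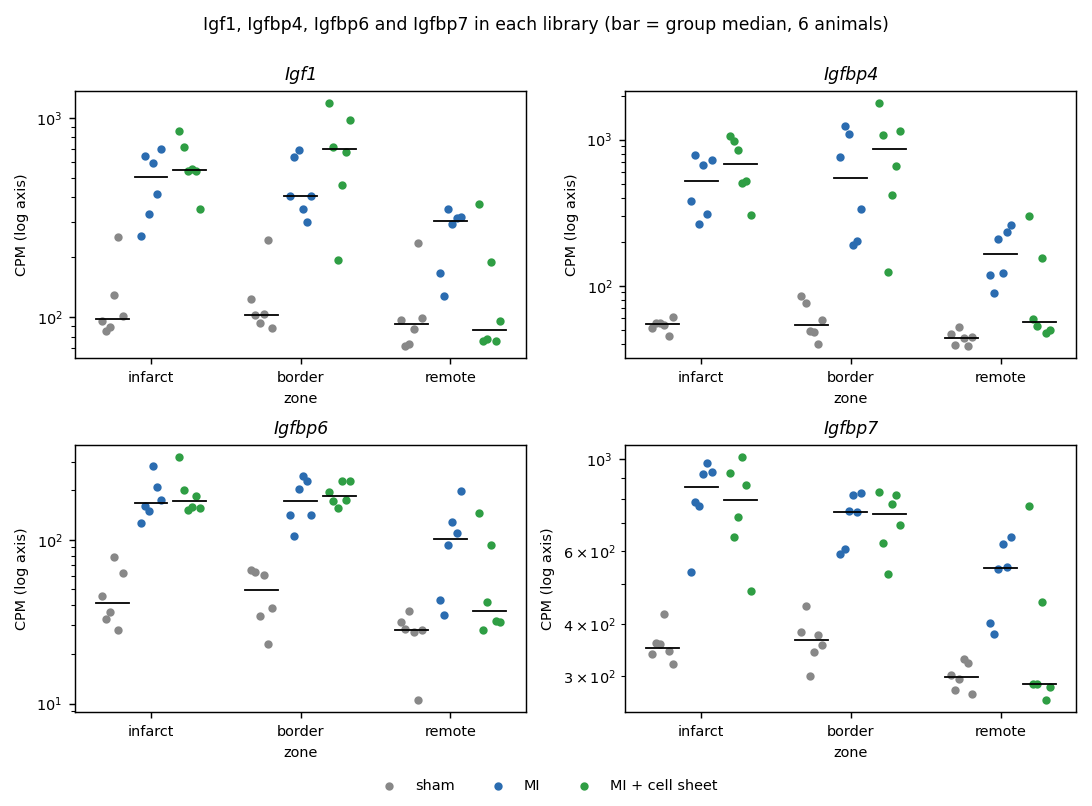
Each point is 1 library and the bar is the median of 6 animals, with CPM on a log axis and the zones side by side for sham (grey), MI (blue) and MI with the cell sheet (green). All MI libraries of the infarct and border zones lie above all sham libraries for the 4 genes, while 4 of 6 cell sheet remote libraries lie at sham levels for Igf1.

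Igf1, the main IGF ligand of the adult, had 85.5 CPM as the lowest, 98.4 as the median and 253 as the highest sham value in the infarct zone, against 255, 504 and 701 in MI. The groups did not overlap, but only narrowly, since the highest sham value belonged to replicate 5 and the other 5 sham hearts reached at most 129.5 CPM. The fold change was 3.84 (log2 fold change 1.94, SE 0.33, adjusted p = 0.00107). Border values of sham hearts ran from 88.5 over 103 to 243 CPM and MI hearts from 302 over 405 to 692 CPM, a log2 fold change of 1.89 (SE 0.29, adjusted p = 0.000935). Remote values of MI hearts ran from 128 over 304 to 348 CPM and sham hearts from 71.7 over 92.1 to 235 CPM, so the groups overlapped through sham replicate 5. The remote rise was 1.24 (SE 0.33, adjusted p = 0.0160) on the log2 scale. Igf1 was called under all 18 alternative settings in each of the 3 zones.

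Igf2, the fetal growth ligand, did not pass the test in any zone. In the infarct zone its sham values ran from 11.9 over 44.1 to 105 CPM and its MI values from 30.5 over 41.8 to 56.3 CPM. The log2 fold change was -0.15 (95% interval from -0.99 to 0.69), and the sham hearts spread more widely than the MI hearts. Border tissue gave -0.47 (SE 0.38, adjusted p = 0.334), with sham replicate 5 the lowest sham value at 8.61 CPM. Without that animal the border difference was -0.69 and passed (adjusted p = 0.0257). Igf2 was the lowest in sham replicate 5 in every zone, where Igf1 was the highest.

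The 2 receptors went in opposite directions. Igf1r, which transmits the signal of both ligands, had sham values from 18.8 over 26.8 to 31.8 CPM in the infarct zone and MI values from 18.4 over 21.3 to 22.8 CPM, so the groups overlapped. It fell by 0.33 on the log2 scale (SE 0.12, adjusted p = 0.0362). Its border values ran from 19.1 over 29.0 to 37.6 CPM in sham and from 13.9 over 19.7 to 23.6 CPM in MI, a fall by 0.57 (SE 0.18, adjusted p = 0.0226). The remote log2 fold change was -0.37 (SE 0.13, adjusted p = 0.0541), which passed without sham replicate 5 or MI replicate 4. The infarct call held under 6 of 18 alternative settings and was lost when MI replicate 1, 2, 3 or 6 or sham replicate 1, 2, 3 or 6 was left out (adjusted p from 0.0506 to 0.0823), and the border call was lost without sham replicate 6 (0.0540). Without TMM factors the log2 fold change of Igf1r was -0.06 in infarct and -0.38 in border tissue, neither called (adjusted p = 0.675 and 0.0754).

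Igf2r, the clearance receptor for IGF2, rose where Igf1r fell. Its sham values in the infarct zone ran from 171 over 191 to 229 CPM and its MI values from 214 over 331 to 368 CPM, and MI replicate 1 was the single MI heart within the sham range. The log2 fold change was 0.68 (SE 0.13, adjusted p = 0.00183). The border rise was 0.54 (SE 0.17, adjusted p = 0.0259), again with MI replicate 1 lowest at 169 CPM and the other 5 MI hearts between 299 and 327 CPM. That border call was lost without MI replicate 4 or 5 or sham replicate 1 or 2 (adjusted p from 0.0509 to 0.0584). Remote Igf2r differed by 0.05 (95% interval from -0.24 to 0.33).

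Igfbp4, a binding protein that mostly holds IGFs away from their receptor and is the classical substrate of PAPP-A, had the largest fitted log2 fold change of the members in every zone for MI against sham, in the infarct zone just above Igfbp2. In the infarct zone sham hearts held 45.4, 54.4 and 61.0 CPM as the lowest, median and highest value, and MI hearts held 265, 522 and 787 CPM. The groups were far apart, with a fold change of 9.62 (log2 fold change 3.27, SE 0.28, adjusted p = 3.64e-05), which placed Igfbp4 at rank 18 by p among 15758 genes tested. Border levels rose from 39.8, 53.4 and 85.2 CPM to 189, 547 and 1241 CPM (log2 fold change 3.43, SE 0.50, adjusted p = 0.000678). The MI border hearts were spread out, with replicates 1, 2 and 3 at 756, 1241 and 1093 CPM and replicates 4, 5 and 6 at 189, 203 and 338 CPM. Remote values were 38.6, 44.1 and 52.4 CPM in sham and 89.8, 165 and 260.2 CPM in MI, again without overlap (log2 fold change 1.96, SE 0.24, adjusted p = 0.000639).

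Igfbp6, a binding protein with a preference for IGF2, rose by similar amounts in all zones. Infarct values in sham were 28.0, 40.9 and 78.2 CPM and MI values were 126, 168 and 282 CPM, without overlap (log2 fold change 1.95, SE 0.27, adjusted p = 0.000343). The border zone gave 1.91 (SE 0.29, adjusted p = 0.000791), also without overlap. Remote MI hearts spread from 34.9 over 102 to 198 CPM, and the lowest lay within the sham range of 10.5 to 36.6 CPM (log2 fold change 1.91, SE 0.40, adjusted p = 0.00524).

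Igfbp7, a secreted relative with low affinity for IGFs that is abundant in vessels and stroma, did not overlap between MI and sham in any zone. Infarct tissue of sham hearts held 321, 352 and 425 CPM and MI hearts 535, 855 and 976 CPM (log2 fold change 1.19, SE 0.15, adjusted p = 0.000179). The rise was 0.98 (SE 0.13, adjusted p = 0.000409) in the border zone and 0.81 (SE 0.14, adjusted p = 0.00199) in the remote zone on the log2 scale. Igfbp4, Igfbp6 and Igfbp7 were called under all 18 alternative settings in each zone.

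Igfbp2, a binding protein of fetal tissues, was the lowest in counts. Infarct libraries of sham hearts had 0 to 6 counts and MI libraries 16 to 125 counts, or 0, 0.222 and 0.525 CPM against 0.791, 1.72 and 5.48 CPM. The groups did not overlap (log2 fold change 3.25, SE 0.65, adjusted p = 0.00227), and at such counts the fitted size is imprecise. Sham border replicate 1 had 3.26 CPM while the other sham hearts had at most 0.718 CPM, and the difference was not called (2.47, SE 1.10, adjusted p = 0.0880). Without that animal it was 4.09 (adjusted p = 0.0197). The remote difference was 0.65 (95% interval from -0.88 to 2.18).

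The last 2 binding proteins moved less. Igfbp5, which binds to extracellular matrix, fell by 0.47 on the log2 scale (SE 0.17, adjusted p = 0.0376) in the infarct zone, where sham values of 47.5, 69.9 and 83.0 CPM overlapped with MI values of 32.2, 52.2 and 56.1 CPM. Border Igfbp5 fell by 0.69 (SE 0.23, adjusted p = 0.0308), from a median of 95.9 to 58.5 CPM. Both calls lay near the threshold and were lost when any of several animals was left out. The infarct call was lost without MI replicate 2, 4 or 6 or sham replicate 1, 3, 4 or 6 (adjusted p from 0.0573 to 0.0851), and the border call without MI replicate 3 or sham replicate 1, 2, 3 or 4 (0.0607 to 0.0692). Without TMM factors the log2 fold changes of Igfbp5 were -0.20 and -0.49, not called. Igfbp3, the main carrier of IGFs in blood, had medians of 99.9 CPM in sham and 175 CPM in MI infarct zones, a log2 fold change of 0.78 (SE 0.32, adjusted p = 0.0587). Its infarct difference passed without MI replicate 1 (adjusted p = 0.0115) or sham replicate 3 (0.0452), and its border difference of 0.67 passed without MI replicate 1 (0.0330).

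**Figure D2:**
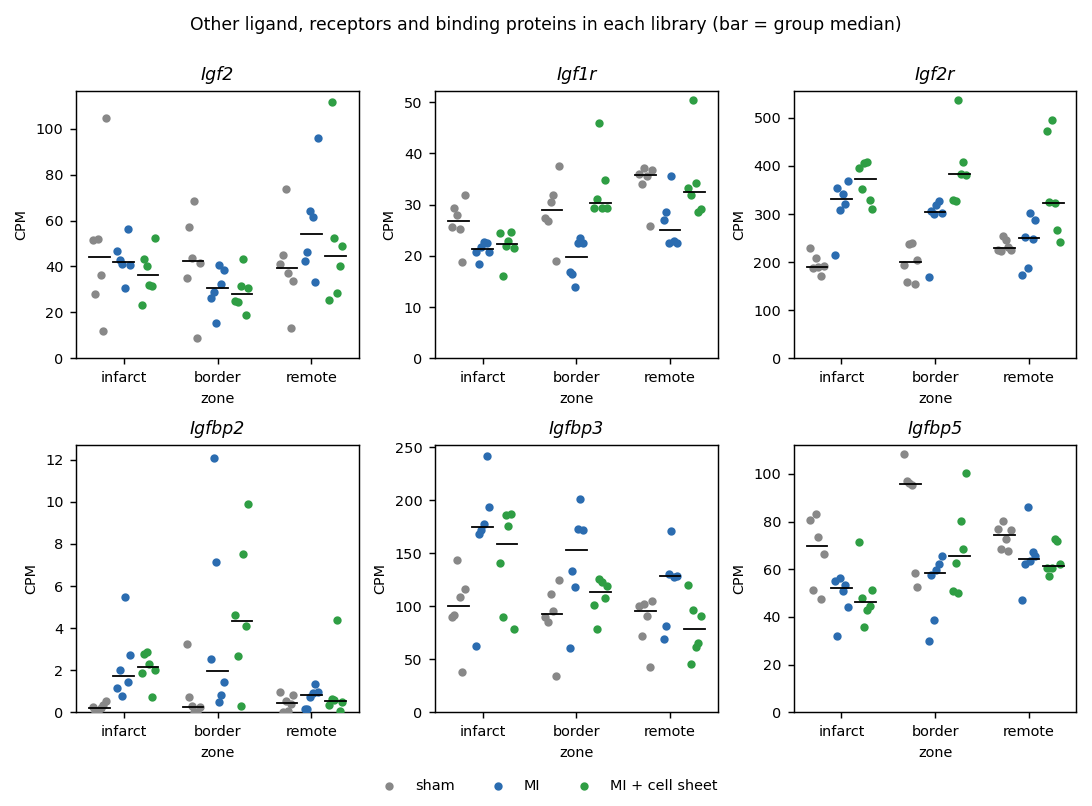
Each point is 1 library and the bar is the median of 6 animals, with CPM on a linear axis from 0. Igf1r in the border zone lies between 29.3 and 46.0 CPM in the cell sheet libraries and between 13.9 and 23.6 CPM in the MI libraries, and the sham libraries (19.1 to 37.6 CPM) overlap both, while Igf2 overlaps between all groups.

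The choice of scaling matters for the small changes. Library size alone, without TMM factors, raised the median log2 fold change of all genes for MI against sham by 0.26 in infarct, 0.19 in border and 0.13 in remote tissue. The share of higher genes among those called then went from 45.5% to 67.1%, from 44.2% to 64.1% and from 45.1% to 68.6%. The rises of Igf1, Igfbp4, Igfbp6 and Igfbp7, from 0.81 to 3.43, stayed called at that scaling, whereas the falls of Igf1r and Igfbp5 were not called and Igfbp3 gained a call in the infarct (1.09, adjusted p = 0.0138) and border zones (0.88, adjusted p = 0.0342).

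Whether infarction acted differently in the zones of one heart was tested within animals. Between the infarct and remote zones 28.9% of all genes differed in their response to MI, 13.6% with the larger log2 fold change in the infarct zone, and 4 of 10 members did so, all larger in the infarct zone. These were Igf2r (0.66, SE 0.12, adjusted p = 0.00259), Igfbp2 (2.49, SE 0.83, adjusted p = 0.0378), Igfbp4 (1.29, SE 0.40, adjusted p = 0.0265) and Igfbp7 (0.39, SE 0.14, adjusted p = 0.0465). Only Igf2r kept its call whichever animal was left out. The count fell to 1 without MI replicate 4, sham replicate 1 or sham replicate 3, and to 2 without MI replicate 2 or 6 or sham replicate 5 or 6. The shares of all genes called without those animals are not given here, so these counts are not set against a background. For Igfbp6 the difference between these zones was 0.25 (95% interval from -0.54 to 1.04). Between the border and remote zones edgeR called 0 members and 0% of all genes. There 3 of 10 members (Igf2, Igf2r and Igfbp5) had an unadjusted p under 0.05, against 24.2% of all genes. Without TMM factors the share of higher genes among those called between infarct and remote zones went from 47% to 62.5%.

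**Figure D3:**
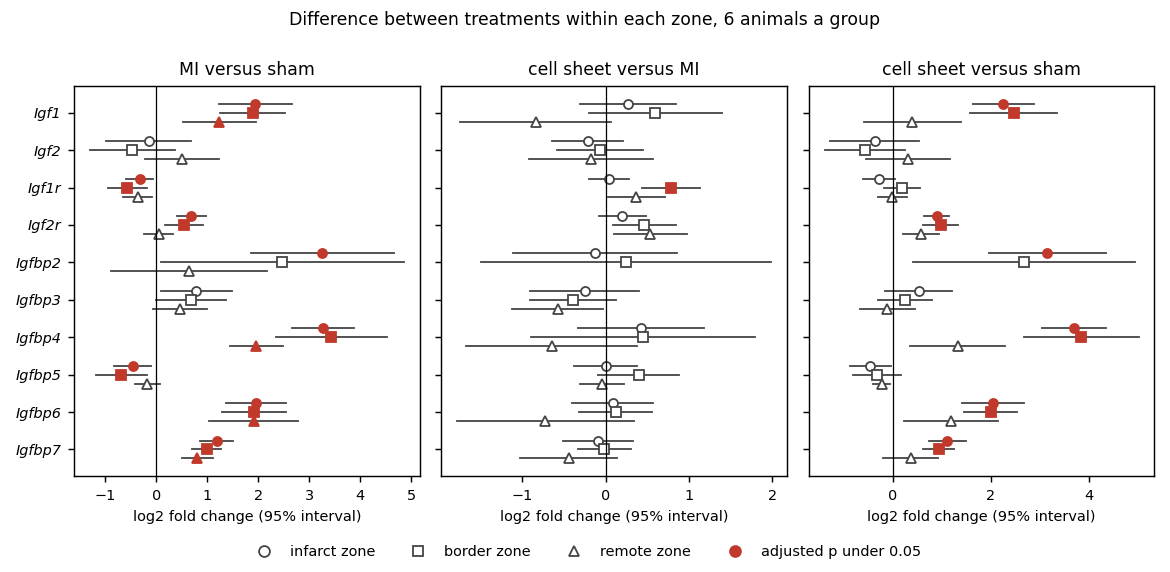
Log2 fold changes of the 10 members in the infarct (circle), border (square) and remote (triangle) zones, with 95% intervals, with filled red symbols for an adjusted p under 0.05. For cell sheet against MI the single filled symbol is Igf1r in the border zone, at 0.79. Igfbp2 is not drawn where it was filtered out in the remote zone.

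The comparison of cell sheet with MI asks what the transplant added to infarction. With all animals, Igf1r in the border zone was the only member called in any zone. Its values were 29.3 CPM as the lowest, 30.2 as the median and 46.0 as the highest in cell sheet hearts, against 13.9, 19.7 and 23.6 CPM in MI hearts. The groups did not overlap, and the fold change was 1.73 (log2 fold change 0.79, SE 0.16, adjusted p = 0.00635). The call held under all 18 alternative settings, with adjusted p from 0.000185 to 0.0499. That is 1 of 10 members, against 18% of all genes in the border zone and 8.47% higher, so the count of members is no larger than the background. Without TMM factors the share of higher genes among those called went from 47.2% to 57.3%.

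The cell sheet hearts had border zone Igf1r levels near those of sham, whose border values were 19.1, 29.0 and 37.6 CPM. The log2 fold change of cell sheet against sham was 0.19 (95% interval from -0.17 to 0.55, adjusted p = 0.375), although without TMM factors it was 0.46 and called (adjusted p = 0.0204). Infarct Igf1r was 22.4 CPM in cell sheet and 21.3 CPM in MI hearts at the median, a log2 difference of 0.04 (95% interval from -0.20 to 0.28). Remote cell sheet hearts had 28.6, 32.5 and 50.5 CPM and MI hearts 22.4, 25.0 and 35.6 CPM, a difference of 0.37 (SE 0.16, adjusted p = 0.119). The effect on Igf1r in the border zone was larger than that in the infarct zone by 0.77 (SE 0.19) on the log2 scale, with an adjusted p of 0.186 in edgeR's quasi-likelihood test, so the zones were not shown to differ. Mural marker genes (5 genes, such as Rgs5 and Pdgfrb) were higher in the same comparison: their mean log2 CPM was between 6.77 and 6.93 in cell sheet border zones and between 5.71 and 6.38 in MI border zones, 3 of the 5 were called higher, and none was at 0 in any library. The mural level was also 6.55 to 6.94 in cell sheet against 6.12 to 6.53 in MI infarct zones, where Igf1r did not pass, and 2 of 5 mural genes were called higher in the remote zone. Over all 54 libraries Igf1r had r = 0.278 with the mural list (0.525 after group means were removed), 0.628 (0.582) with the endothelial list and -0.644 (-0.578) with the macrophage list. The endothelial list ran from 7.48 to 7.85 in cell sheet and from 7.03 to 7.57 in MI border zones, with 1 of 6 genes called higher. The adipocyte list had a median of 4.92 in cell sheet against -0.20 in MI border zones, with 2 of 4 tested genes called higher, and Adipoq, Plin1, Cidec, Lep and Adrb3 were at 0 in at least 1 of the 54 libraries. The part of these cells in the Igf1r result was not tested.

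Igf2r did not pass between cell sheet and MI. Border cell sheet hearts held 328, 383 and 538 CPM and MI hearts 169, 304 and 327 CPM, which do not overlap, yet the log2 fold change of 0.46 (SE 0.17) had an adjusted p of 0.0870. The remote difference was 0.53 (SE 0.20, adjusted p = 0.0825). Both passed when all 9 groups shared a single fit (adjusted p = 0.0418 and 0.0149). Among the marker lists Igf2r followed the mural list most closely over all libraries (r = 0.816, and 0.529 after group means were removed). After group means were removed the myofibroblast list was the closest (0.547, and 0.709 over all libraries). Of the mural genes 3 of 5 were called higher in the border and 2 of 5 in the remote zone. Of the myofibroblast genes 0 of 4 were called in either zone. The part of these cells in the Igf2r values was not tested.

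Igf1 itself was not called between cell sheet and MI with all animals. The infarct zone medians were 548 and 504 CPM (log2 fold change 0.27, 95% interval from -0.30 to 0.85). Border zone hearts of the cell sheet group spread from 193 over 695 to 1189 CPM, a difference of 0.59 (95% interval from -0.20 to 1.39). Igfbp4 spread as widely there, from 123 over 866 to 1789 CPM, and the replicates at both ends, 3 and 1, were those at both ends for Igf1. Igfbp3 was called lower there (-0.55, adjusted p = 0.0419) without MI replicate 1. For Igfbp6 and Igfbp7 the border differences were 0.12 (95% interval from -0.32 to 0.56) and -0.02 (-0.34 to 0.30).

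In the infarct zone 0 members and 0% of all genes were called between cell sheet and MI by edgeR's quasi-likelihood test. At an unadjusted p under 0.05 were 1341 genes (8.28%) but no member, whereas DESeq2 called 59 genes and 0 members. With the infarct and border zones of each animal summed, 12.1% of genes were called, 6.02% higher, and Igf1r was again the 1 member (log2 fold change 0.44, SE 0.10, adjusted p = 0.0180).

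The remote zone depended on 1 animal. With all 6 cell sheet hearts, 0 of 9 members tested were called in edgeR against 17.1% of all genes. DESeq2 called 0 members, against 3718 of the 16532 genes to which it gave an adjusted p. In edgeR 3 of the 9 (Igf1r, Igf2r and Igfbp3) had an unadjusted p under 0.05. Of all genes 34.9% had one, so that count is no larger than the background. Cell sheet replicate 1 had 372 CPM of Igf1, 302 of Igfbp4, 146 of Igfbp6 and 769.7 of Igfbp7 there, the highest of the group in each case. Replicate 4 was next in each, with 188, 154, 93.4 and 453 CPM. Without replicate 1 Igf1 (-1.37, adjusted p = 0.00325), Igfbp3 (-0.73, 0.0254), Igfbp4 (-1.26, 0.0123), Igfbp6 (-1.18, 0.0423) and Igfbp7 (-0.76, 0.00469) were all lower in cell sheet than in MI remote zones. That is 5 members, against 41.6% of all genes called without this animal and 20.8% lower. The same library was also the highest of its group in a fibroblast level of 10.2 and a macrophage level of 6.75, against group medians of 8.26 and 4.71. MI remote zones had medians of 9.51 for fibroblast, 6.36 for macrophage and 7.03 for myofibroblast markers, the last beside 5.13 in the cell sheet group. With all animals 1 of 6 fibroblast, 1 of 7 macrophage and 0 of 4 myofibroblast genes were called lower, and the part of these cells in the member values was not tested. Without TMM factors and with all animals, the share of higher genes among those called went from 60.2% to 48.5%.

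Set against sham, the cell sheet hearts had higher Igf1, Igf2r, Igfbp4, Igfbp6 and Igfbp7 in the infarct and border zones. Both comparisons use the same sham libraries, so their values stand side by side and are not independent. In the infarct zone 6 of 10 members rose, against 57.9% of all genes and 28.6% higher: Igf1 by 2.26, Igf2r by 0.90, Igfbp2 by 3.16, Igfbp4 by 3.70, Igfbp6 by 2.04 and Igfbp7 by 1.11 on the log2 scale, with adjusted p from 8.81e-06 to 0.000688 and no overlap of the groups. Among border values 5 of 10 rose, against 43.6% of all genes and 20.4% higher: Igf1 by 2.47, Igf2r by 0.97, Igfbp4 by 3.85, Igfbp6 by 2.00 and Igfbp7 by 0.94. Igf1 overlapped there, since cell sheet replicate 3 had 193 CPM and sham replicate 5 had 243 CPM. Without sham replicate 5 the counts were 8 and 7 members. The additions were Igf1r and Igfbp5 (lower) in the infarct zone and Igf2 (lower) and Igfbp2 (higher) in the border zone. Leaving out cell sheet replicate 1 as well, an alternative chosen after seeing the data, gave the same counts and additions. The shares of all genes called in these fits are not given here, so the counts are not set against a background. Without TMM factors the share of higher genes among those called went from 49.5% to 66.3% and from 46.8% to 71.2%, with shifts of the median of 0.26 and 0.27.

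In the remote zone 0 of 9 members tested were called between cell sheet and sham, where a single gene passed (0.0066% of all genes). At an unadjusted p under 0.05 edgeR listed 4 of the 9 members, against 10% of all genes. DESeq2 called 179 genes and 0 members. Igf1 had a median of 86.6 CPM in cell sheet and 92.1 CPM in sham remote zones, and 4 of 6 cell sheet hearts lay within 75.8 to 95.8 CPM. The log2 differences were 0.40 (95% interval from -0.60 to 1.39) for Igf1, 1.32 (0.34 to 2.30) for Igfbp4 and 1.19 (0.24 to 2.15) for Igfbp6. Without cell sheet replicate 1 they were -0.14, 0.70 and 0.72, none called. A test of whether the effect of the cell sheet on Igf1 differed between border and remote zones gave 1.54 (SE 0.51, adjusted p = 0.146). It called 0% of all genes and 0 members. At an unadjusted p under 0.05 were 3 of 10 members (Igf1, Igf1r and Igfbp7), against 20.4% of all genes. Between border and infarct zones 0% of all genes and 0 members were called. There 1 of 10 members (Igf1r) had an unadjusted p under 0.05, against 11.6% of all genes.

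The wider IGF system was followed through 31 further genes. Of 9 carriers, proteases and inhibitors, 6 could be tested in the infarct zone for MI against sham, and 3 rose and 1 fell, beside 22.7% higher and 27.2% lower of all genes. Pappa1 and Pappa2, the proteases that cleave IGF-binding proteins, rose by 1.93 (SE 0.37, adjusted p = 0.00181) and 2.90 (SE 0.71, adjusted p = 0.00632) on the log2 scale, and the protease Htra1 by 1.47 (SE 0.19, adjusted p = 0.000193). Stc2, a stanniocalcin that blocks PAPP-A, fell by 1.83 (SE 0.33, adjusted p = 0.00144), from 2.63, 9.61 and 11.6 CPM in sham to 1.60, 2.29 and 3.60 CPM in MI. Igfbp4, the substrate of Pappa1, rose in the same hearts. Remote tissue had Pappa1 (1.06, adjusted p = 0.0482) and Htra1 (0.74, adjusted p = 0.0206) higher and Stc2 (-1.22, adjusted p = 0.00558) lower as well. Igfbp1, Igfals and Igfbpl1 were too low to test in any comparison within a zone.

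**Figure D4:**
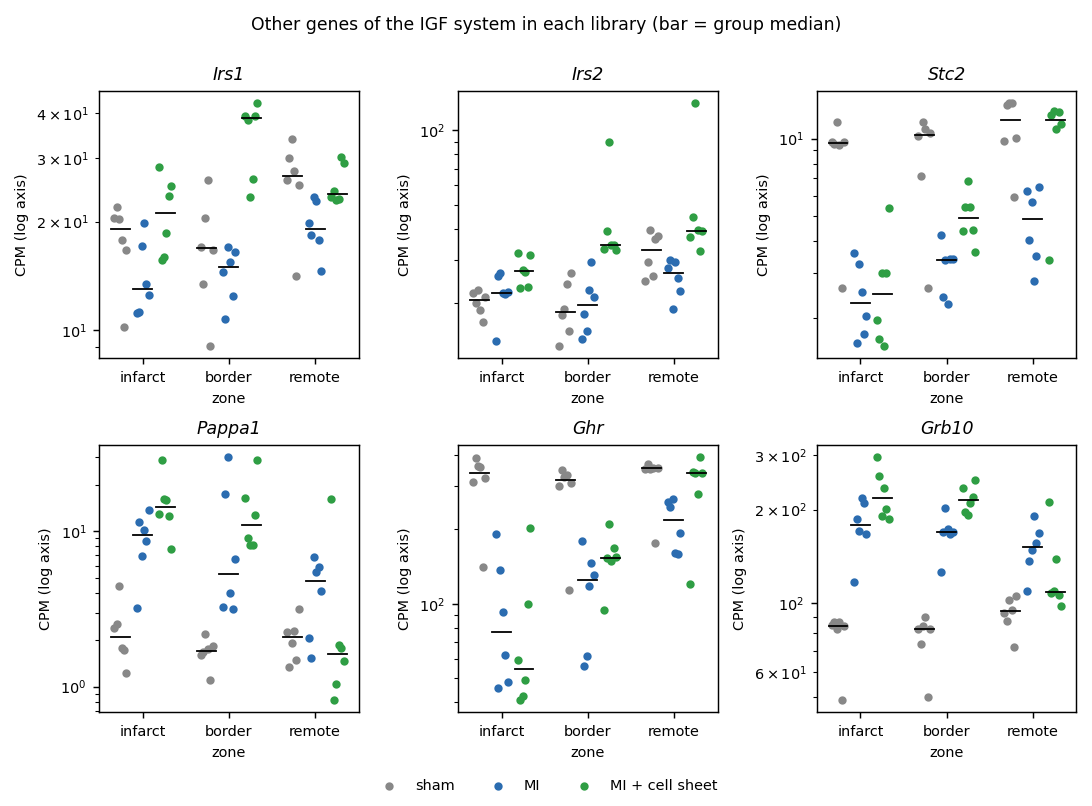
Each point is 1 library and the bar is the median of 6 animals, with CPM on a log axis, for adaptors (Irs1, Irs2 and Grb10), a protease (Pappa1), a protease inhibitor (Stc2) and the growth hormone receptor (Ghr). Irs1 in the border zone lies between 23.3 and 42.7 CPM in cell sheet hearts and between 10.8 and 17.0 CPM in MI hearts.

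Below the receptors, 3 of 13 tested genes of the insulin receptor family and its adaptors rose and 4 fell in the infarct zone of MI hearts, beside 22.7% higher and 27.2% lower of all genes. Insr, the insulin receptor, fell by 0.91 (SE 0.20, adjusted p = 0.00418), while Grb10, an adaptor that restrains both receptors, rose by 1.16 (SE 0.17, adjusted p = 0.000446). Shc1 rose by 1.39, and Grb14, Pik3ca and Akt2 fell by 1.39, 0.24 and 0.58. Of 4 genes of growth hormone input, 2 fell, beside 27.2% of all genes: Ghr, the growth hormone receptor that drives Igf1 in liver, by 1.71 (SE 0.38, adjusted p = 0.00376), and Socs2 by 1.16 (SE 0.33, adjusted p = 0.0123). Igf1 rose in these hearts, and Ghr fell in the border zone (by 1.31) and the remote zone (by 0.61) too. Among the Igf2 locus and RNA genes, H19, a neighbour of Igf2 on chromosome 1, rose in the border zone (1.20, adjusted p = 0.00859) and the remote zone (1.40, adjusted p = 0.0467) while Igf2 did not pass. Igf2bp3, an RNA-binding protein named for Igf2, fell by 1.77 (adjusted p = 0.0144) in the infarct zone.

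In the cell sheet border zone 4 of 14 genes of the receptor family and adaptors were higher than in MI and 0 lower, with a median log2 fold change of 0.13 over the list and beside 8.47% higher of all genes: Irs1 by 1.27 (SE 0.17, adjusted p = 0.000857), Irs2 by 1.12 (SE 0.28, adjusted p = 0.0164), Grb10 by 0.37 (adjusted p = 0.0399) and Pik3r1 by 0.37 (adjusted p = 0.0292). Irs1 and Irs2, the docking proteins through which both receptors reach PI3K, did not overlap between the groups. Irs1 had 23.3, 38.8 and 42.7 CPM in cell sheet and 10.8, 15.0 and 17.0 CPM in MI hearts. The stanniocalcins Stc1 (0.81, adjusted p = 0.0240) and Stc2 (0.66, adjusted p = 0.0372) were also higher. Remote tissue had 2 of 13 tested genes of the receptor family and adaptors higher than in MI, namely Irs2 (1.05, adjusted p = 0.0370) and Insr (0.54, adjusted p = 0.0185), and 2 lower. Of 5 tested carriers and proteases there, Stc2 was higher (1.12, adjusted p = 0.0275) and Htra3 lower (-0.54, adjusted p = 0.0171). Both counts stand beside 17.1% of all genes called in that comparison, of which 60.2% were higher.

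Finally, members were set beside other genes and cell type markers over the 54 libraries. These correlations are descriptions, since the libraries share treatment, zone and animal. Igf1 was most like Tnfrsf1a (Pearson r = 0.981), Spon1 (0.978) and Scpep1 (0.978). Igfbp4 was most like Adamts15 (0.975), Igfbp6 like Nbl1 (0.969) and Igfbp7 like Adamts2 (0.959). Igf1r followed Dst (0.903), Macf1 (0.901) and Cpd (0.871). In the border zone edgeR called Macf1 (0.55, adjusted p = 0.0164) and Cpd (0.71, adjusted p = 0.0230) higher with the cell sheet than in MI. Dst, the closest, was not called there (0.66, adjusted p = 0.0689). These genes were picked for their likeness to Igf1r over the same libraries, so their border values are not separate support for the Igf1r result. The closest genes to Igf2, Igfbp2, Igfbp3 and Igfbp5 were Rps6ka2 (0.706), Il17re (0.830), Frzb (0.807) and Kcnn3 (0.686), and to Igf2r Creb3l2 (0.902). Among the members Igf1 and Igfbp4 (0.931) and Igfbp6 and Igfbp7 (0.912) were the closest pairs, while Igf1 and Igf1r went against each other (-0.555).

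Igf1 followed the macrophage list (7 genes, such as Cd68 and C1qa) with r = 0.962 over all libraries and 0.904 after group means were removed. Within infarct tissue the mean log2 CPM of that list was between 4.58 and 7.11 in sham, between 6.61 and 7.89 in MI and between 6.44 and 8.10 in cell sheet hearts, with 5 of 7 genes called higher in MI than in sham and none at 0 in any library. The highest sham value was that of replicate 5, the sham heart with the highest Igf1. Igfbp7 and Igfbp6 followed the fibroblast list (6 genes, such as Pdgfra and Dcn) with r = 0.956 and 0.939, and 0.830 and 0.754 within groups. That list ran from 8.31 to 8.85 in sham and from 9.52 to 10.3 in MI infarct zones, with 4 of 6 genes called higher and none at 0. Igfbp4 had r = 0.901 with the fibroblast list but 0.508 within groups, below its within-group value of 0.660 for the mesothelial list. The part of macrophage and fibroblast content in these results was not tested.

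**Figure D5:**
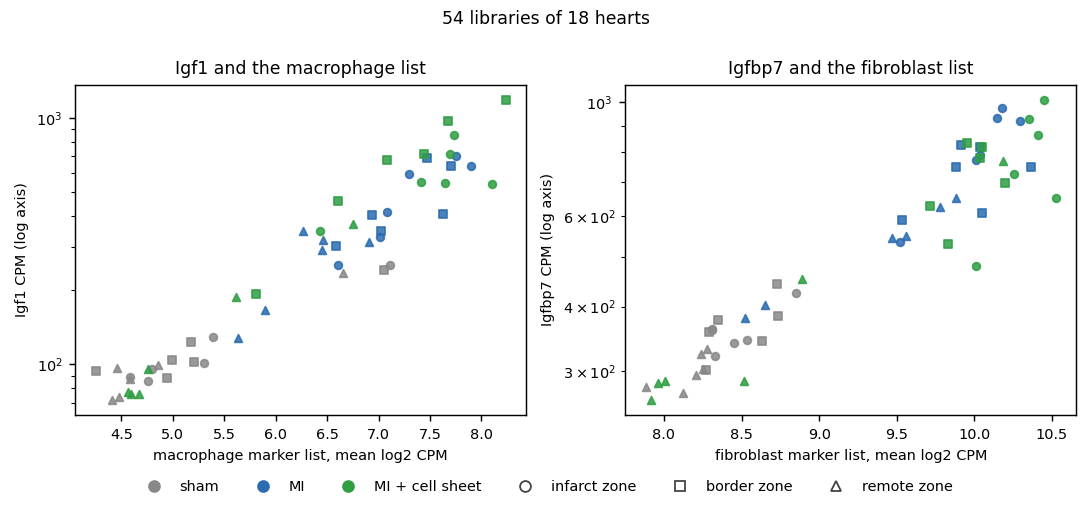
Igf1 against the mean log2 CPM of the macrophage markers, and Igfbp7 against that of the fibroblast markers, in 54 libraries of 18 hearts, with CPM on a log axis, colour for treatment and symbol for zone. Sham replicate 5 gives the 3 grey points near a macrophage level of 7 that lie apart from the other sham libraries.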

How the data were processed

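Poly(A)-enriched RNA of 54 left ventricular libraries from 18 rats was sequenced as paired-end reads. The authors aligned the reads with STAR to mRatBN7.2, and the deposited values are raw counts for each gene, 1 table per library. How reads were assigned to genes and whether strand was used is not given in the sources used here, so reads of overlapping, antisense or near-identical genes cannot be told apart. The authors' own tests used DESeq2. The 5 summary lines of each table name no gene and entered neither library sizes nor tests. The largest of them (reads in no gene) held 9.26% to 35.3% of all counts in a library. Its median for sham, MI and cell sheet was 29.0%, 18.1% and 12.2% in the infarct zone. It was 29.5%, 19.6% and 17.9% in the border zone and 30.4%, 32.0% and 23.3% in the remote zone. The part of this difference between groups in the results was not tested.

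Samples were grouped by the treatment, zone and replicate number of the labels, and no 2 libraries of a group agreed within sampling noise (chi-square per degree of freedom of at least 7.97). The tests used R 4.3.3 with edgeR 4.0.16 (filterByExpr, TMM, quasi-likelihood F test, Benjamini-Hochberg, threshold 0.05), with only the libraries compared in each fit and the animal as a block for differences between zones. The script was tested on simulated data first. Log2 CPM used a prior count of 2. Alternatives were DESeq2 1.42.0, no TMM factors, no filter, a minimum of 10 counts in every library, a replicate block, a single fit of 9 groups and leaving out each animal. All 10 members are named, with further genes from a list of 31 of the IGF system where they passed (some are not reported here) and the 3 genes most like each member. The members and lists were chosen with earlier results of these data known. Promoters and gene neighbours come from RefSeq on GRCr8, which is not the build of the counts, so no gene coordinates were joined to them.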

Additional observations from a re-analysis of the deposited data

Results flagged for a closer look

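In 13 of 90 sets of 6 libraries (10 members in 9 groups), 1 library lay apart from the other 5 by Dixon's criterion. Chance alone does this in about 1 of 20 groups of independent, normally distributed values. The 90 sets are untransformed CPM from the same hearts across zones and genes, so their count cannot be held against that rate. Sham replicate 5 gave 5 of the 13. Its Igf1 was 235 CPM in the remote, 243 CPM in the border and 253 CPM in the infarct zone, and its remote Igf1r of 25.7 CPM and Igfbp6 of 10.5 CPM were the lowest of their groups. In the cell sheet group Igf2 stood at 111 CPM in remote replicate 2, Igf1r at 50.5 and 46.0 CPM in the remote and border zones of replicate 3 and at 16.0 CPM in infarct replicate 2. Igfbp2 stood at 4.41 CPM in cell sheet remote replicate 4 and at 3.26 CPM in sham border replicate 1. Igf2r was low at 169 CPM in MI border replicate 1, and Igfbp6 was high at 320.3 CPM in cell sheet infarct replicate 1.

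The response to MI was larger in the infarct than in the remote zone by a direct test for Igf2r (0.66), Igfbp2 (2.49), Igfbp4 (1.29) and Igfbp7 (0.39) on the log2 scale. For Igfbp2 the call was lost in 8 and for Igfbp7 in 10 of 12 fits that left out 1 animal, for Igfbp4 in 3 and for Igf2r in 0.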

How the results depend on the processing

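No called member changed direction under any alternative tried. Of 2373 log2 fold changes of single members recomputed, 59 lost and 43 gained a call. In a single fit of all 9 groups, cell sheet against MI gave 2 members in the border zone (Igf2r added to Igf1r) and 1 in the remote zone, and cell sheet against sham gave 1 in the remote zone, Igf2r in each case. With a replicate block, cell sheet against MI on the summed infarct and border zones gave 0 members (Igf1r, adjusted p = 0.0561). The replicate numbers join different rats and did not pair the libraries (correlations of same-numbered libraries from -0.628 to 0.511, never over 0.1 in all 6 pairs). Under the replicate block MI against sham gave 7, 5 and 5 members in the infarct, border and remote zones. The shares of all genes called in the single fit and with the replicate block are not given here. The counts of members in those fits are therefore not set against a background. Without TMM factors Igf1r and Igfbp5 lost their calls for MI against sham in both injured zones, since that scaling shifts all genes upward.

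Leaving out each animal in turn gave, for MI against sham, 6 to 8 members in the infarct, 5 to 8 in the border and 4 to 5 in the remote zone. For cell sheet against MI it gave 0 to 0, 1 to 2 and 0 to 5, with 1 to 1 on the summed zones, and for cell sheet against sham 6 to 8, 5 to 7 and 0 to 0. The difference between infarct and remote zones in MI against sham held 1 to 5 members, and the other differences between zones 0 to 0. The share of all genes called in such fits is given only for cell sheet against MI in the remote zone without cell sheet replicate 1. Depth limits Igfbp2, which a minimum of 10 counts in every library kept only for cell sheet against MI in the infarct zone and on the summed zones. DESeq2, the single fit and the replicate block were not run for differences between zones.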
